A study of Mus musculus with 12 samples.

Results

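The proteases that cut the extracellular matrix and shed proteins from cell surfaces, together with their tissue inhibitors, were followed as a group of 79 genes among the 54838 genes counted in each library. They were chosen by symbol alone, as every gene whose symbol begins with Mmp, Adam, Adamts or Timp followed by a digit. Of these, 71 had at least 10 counts in at least 3 of the 12 libraries and are described here, namely 21 of 23 Mmp genes, 27 of 33 Adam genes, all 19 Adamts genes and all 4 Timp genes. The 8 genes below that minimum were Mmp1b, Mmp7, Adam6a, Adam6b, Adam20, Adam24, Adam25 and Adam26a.

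Matrix metalloproteinases (MMPs) are zinc-dependent enzymes, made as inactive precursors, that cleave collagens, laminins, fibronectin and many cytokines, and some of them can cut myelin basic protein. ADAM proteases are anchored in the cell membrane and release the outer parts of growth factors, cytokines and receptors, whereas ADAMTS proteases are secreted and several of them cleave the chondroitin sulfate proteoglycans that accumulate in demyelinated white matter. Tissue inhibitors of metalloproteinases (TIMPs) bind the active site of MMPs, and TIMP3 also blocks several ADAM and ADAMTS enzymes.

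RNA was sequenced from spinal cord cell suspensions of mice at postnatal day 60, in which a focal demyelinating lesion had been made by injection of lysolecithin into the ventrolateral white matter. Lesioned tissue was collected at 4 days post-lesion (4dpl), and unlesioned tissue came from the opposite side of the cord. Controls were Olig1+/+;Tet1fl/fl mice, given as wildtype in the labels, and mutants were Olig1cre/+;Tet1fl/fl mice, given as Tet1 cKO, so that every animal carried the floxed Tet1 alleles and the mutants also had cre in place at one Olig1 allele. The 4 groups of control unlesioned, control 4dpl, mutant unlesioned and mutant 4dpl held 3 libraries each, and the design asks which genes differed with the lesion, with the loss of TET1, a DNA hydroxymethylase, and with both. Cre from the Olig1 locus removes exon 4 of Tet1 in cells of the oligodendrocyte lineage, while the suspensions were enriched on a Percoll gradient and not sorted, so other cells also gave RNA. Values are given for replicates 1, 2 and 3 of a group in that order. The labels do not tie libraries to individual animals, so the p-values measure the spread between these libraries.

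The libraries held 34805086 to 67251544 counted reads. Counts of Tet1 over its whole length, at 14.9 to 18.3 CPM (TMM-scaled counts relative to library size) in control unlesioned and 9.94 to 16.4 CPM in mutant unlesioned libraries, do not isolate exon 4 and so do not check the deletion. At 4dpl Tet1 stood at 11.7 to 12.5 CPM in controls and 10.9 to 21.5 CPM in mutants. Summed markers of mature oligodendrocytes reached 13916 to 63635 CPM, with the highest value in mutant 4dpl replicate 3, where no other library exceeded 32785 CPM. Summed neutrophil markers reached 21670 to 119206 CPM and summed microglial markers 1016 to 4530 CPM, so transcripts of blood and immune cells were present throughout. Control unlesioned replicate 1 stood apart from the other unlesioned libraries on the first principal component (-5.59 against -77.9 to -40.4, with 27.9 to 72.1 at 4dpl). In suspensions of mixed cells, fewer cells of a type and less RNA per cell cannot be told apart.

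Measured per kilobase of exon, the highest members were not those of the oligodendrocyte lineage. Mmp8, the neutrophil collagenase, averaged 458 CPM per kilobase over the 12 libraries and Mmp9, gelatinase B, averaged 413 CPM per kilobase. Between them they made up most of the summed MMP level in every library, Mmp8 with 41.6% to 56.2% and Mmp9 with 40.6% to 51.5%. The next MMPs on that scale were Mmp25, a membrane-anchored leukocyte enzyme, at 16.2 CPM per kilobase, and Mmp14, the membrane enzyme that activates proMMP2, at 11.7 CPM per kilobase. Among the ADAMs, Adam8, a leukocyte sheddase, led with 78.0 CPM per kilobase, before the general sheddase Adam10 with 41.2 and Adam15 with 28.3 CPM per kilobase. Adamts1 and Adamts4, both cleaving aggrecan and versican, led the ADAMTS genes with 32.8 and 30.0 CPM per kilobase. Timp2 accounted for 69.4% to 95.7% of the summed TIMP level of a library. At the other end, 21 of the 71 genes averaged under 1 CPM, most of them ADAMs known from testis or sperm and low MMPs.

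Comparing 4dpl with unlesioned libraries over both genotypes, 12 of the 71 members rose and 17 fell. A gene was called where edgeR's quasi-likelihood test, fitted to all 31109 genes that passed the filter on low counts, gave p under 0.01 and a Benjamini-Hochberg adjusted p under 0.05. Of all genes tested, 14.2% rose and 18.6% fell by the same rule, against 16.9% and 23.9% of the members, so the shares called lay near those of all genes. At an unadjusted p under 0.05, 19 members were higher (21.3% of all genes) and 23 lower (30.7%). Without control unlesioned replicate 1, 17 rose (17.7% of all genes) and 18 fell (20.2%). The risers were Mmp2, Mmp11, Mmp12, Mmp14, Mmp27, Adam9, Adam10, Adam15, Adam17, Adam33, Adamts1 and Adamts16. All 12 libraries were separated by the lesion, with no overlap between 6 unlesioned and 6 lesioned values, for 4 members that were higher (7.44% of all genes tested) and 6 that were lower (7.42%). Within controls the 3 lesioned values lay above the 3 unlesioned ones for 15 members (16.5% of all genes) and below for 13 (21.4%), and within mutants above for 12 (18.8%) and below for 20 (23.2%).

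The direction followed the level of the gene, for members as for all genes. Of the 21 members above 10 CPM, 8 rose and none fell, where 40.9% of the 9673 genes at that level rose and 0.445% fell. Of the 29 members between 1 and 10 CPM, 4 rose and 7 fell, against 6.73% and 11.6% of 6583 genes. Of the 21 members under 1 CPM, none rose and 10 fell, against 0.182% and 33.4% of 14853 genes. All 21 of these low members had a lower value at 4dpl, with a median log2 difference of -1.78 against -1.60 over all genes at that level. The share of reads in genes under 1 CPM moved with the lesion in every library, from 0.479% to 1.40% in unlesioned to 0.280% to 0.390% in lesioned libraries, and its part in the fall of low members was not tested. On the scale of group means, the median log2 difference over all genes was -0.26 with TMM scaling and -0.63 with scaling to total counts, and the members above 10 CPM that were higher at 4dpl numbered 16 of 21 and 14 of 21.

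**Figure D1:**
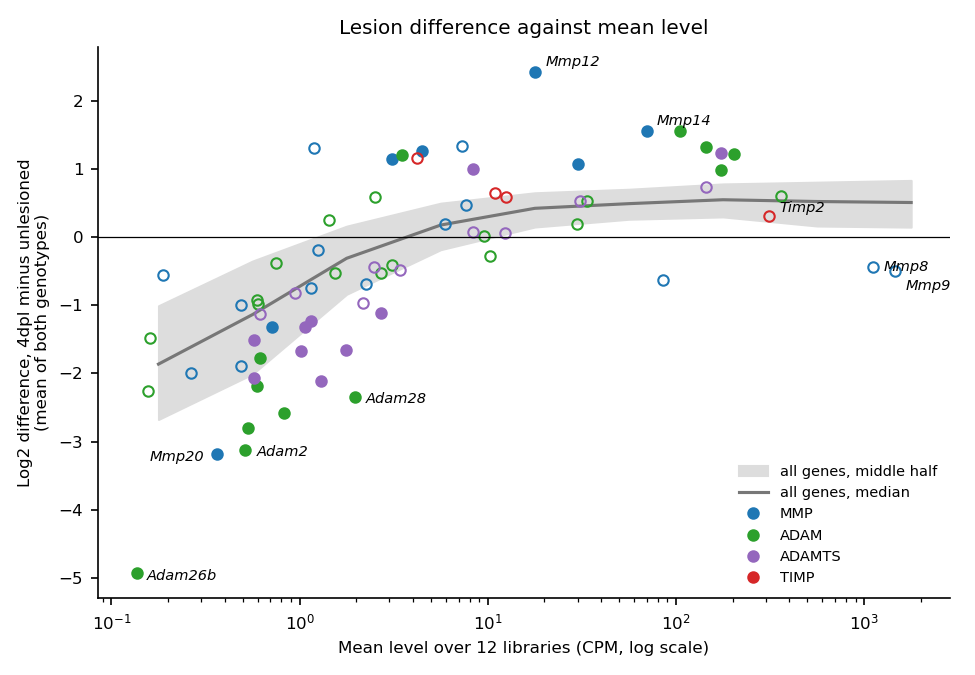
Log2 difference between 4dpl and unlesioned libraries, as the mean of both genotypes, against the mean level in CPM on a log scale for the 71 members. Filled points were called and open points were not, the grey line is the median of all genes in bins of level with the band from the lower to the upper quartile, and Mmp12 at 2.42 stands highest while the members under 1 CPM all lie below 0.

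Mmp12, the macrophage elastase, showed the largest rise among the members. It stood at 13.8, 2.698 and 6.41 CPM in the control unlesioned libraries and at 60.2, 40.1 and 29.6 CPM at 4dpl. In mutants it stood at 3.35, 3.26 and 3.47 CPM unlesioned and at 30.7, 16.5 and 3.65 CPM at 4dpl. The control groups did not overlap, whereas mutant 4dpl replicate 3 lay barely above the 3 unlesioned mutants. The log2 difference over both genotypes was 2.42 ± 0.45 (standard error, SE; edgeR adjusted p = 0.00373), with 2.50 in controls and 2.33 in mutants. Summed microglial markers moved the same way, from 1016 to 2059 CPM unlesioned to 2535 to 4530 CPM at 4dpl in controls and from 1041 to 3337 CPM to 2820 to 4393 CPM in mutants. Summed markers of monocytes and infiltrating macrophages did not, spanning 2514 to 7185 CPM unlesioned and 2729 to 3514 CPM at 4dpl in controls. In mutants they spanned 1968 to 7318 CPM unlesioned and 1871 to 6931 CPM at 4dpl. These markers differed among themselves, as edgeR called 3 of 8 higher and 1 lower over both genotypes, and 2 and 1 in controls. The part of either cell type in the change was not tested.

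Mmp14 (MT1-MMP), which cleaves fibrillar collagen at the cell surface, rose from 83.3, 13.003 and 29.04 CPM to 119, 152 and 119 CPM in controls. In mutants it stood at 36.3, 18.9 and 30.5 CPM unlesioned and at 81.6, 79.8 and 76.9 CPM at 4dpl. Only control unlesioned replicate 1 reached the lesioned range. The log2 difference over both genotypes was 1.56 ± 0.34 (edgeR adjusted p = 0.00571), and it was 2.08 without that library. Mmp2, gelatinase A and the main substrate of Mmp14 among the MMPs, stood at 24.5, 10.8 and 15.6 CPM unlesioned and 28.6, 44.1 and 56.9 CPM at 4dpl in controls, and at 32.9, 11.3 and 21.2 and 40.6, 35.9 and 37.8 CPM in mutants. Within each genotype the lesioned values lay above all unlesioned ones, and the log2 difference was 1.08 ± 0.27 over both (edgeR adjusted p = 0.00885). Summed markers of fibroblasts and meningeal cells, which also express Mmp2 and Mmp14, were 16.2 to 39.3 CPM unlesioned and 91.7 to 198 CPM at 4dpl in controls. In mutants they were 26.5 to 71.2 CPM and 42.1 to 62.7 CPM. Of these 6 markers edgeR called 3 higher and 1 lower in controls, and 3 higher and 2 lower over both genotypes. The part of these cells was not tested.

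Mmp11 (stromelysin 3) and Mmp27, a little-studied member, also rose, although they are outside the rule for genes named with values and were chosen after their values were seen. Mmp11 reached 2.95 to 4.47 CPM at 4dpl against 1.97 to 2.705 CPM unlesioned in controls, with a log2 difference of 1.14 ± 0.34 over both genotypes. Its exons overlap those of Chchd10 on the opposite strand, and the strand setting of the counting is not given in the sources used here. Mmp27 reached 6.63 to 7.85 against 2.23 to 2.48 CPM in controls, with 1.26 ± 0.30 over both genotypes. In mutants its groups overlapped, at 2.34 to 8.99 CPM at 4dpl against 1.86 to 3.47 CPM unlesioned.

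Mmp8, Mmp9, Mmp25 and Adam8, the proteases of leukocytes, did not separate by lesion over both genotypes. Mmp9 stood at 2979.5, 1282 and 517 CPM in control unlesioned and 1303, 812 and 834 CPM in control 4dpl libraries, and at 1148, 2628 and 1672 and 742, 2647 and 992 CPM in mutants. Mmp8 stood at 1864, 759 and 412 and 921, 509 and 638 CPM in controls and at 746, 2229.6 and 1585 and 560.3, 2439.9 and 666 CPM in mutants. Values of single libraries within a group differed by more than the groups did, with control unlesioned replicate 1, mutant unlesioned replicate 2 and mutant 4dpl replicate 2 the 3 highest for both genes. The same 3 libraries, with control unlesioned replicate 2, also held the 4 highest sums of neutrophil markers. Within controls these markers were lower in every lesioned library, at 29219 to 36420 CPM against 45984 to 99091 CPM unlesioned, while the mutant groups overlapped, and their part in the values was not tested. The 5 libraries highest in neutrophil markers included 4 of the 5 highest for Mmp8, 4 for Mmp9, 5 for Mmp25 and 3 for Adam8. The log2 differences with the lesion over both genotypes were -0.43 ± 0.43 for Mmp8 and -0.51 ± 0.41 for Mmp9, neither called (edgeR adjusted p = 0.428 and 0.327). Mmp25 at -0.63 ± 0.40 and Adam8 at 0.60 ± 0.39 were not called either. Without control unlesioned replicate 1 the differences were -0.01 for Mmp8, -0.07 for Mmp9, -0.20 for Mmp25 and 1.06 for Adam8, and without mutant 4dpl replicate 2 they were -0.91, -0.86, -0.96 and 0.36. Adam8 was called higher by voom, and by edgeR without control unlesioned replicate 1.

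**Figure D2:**
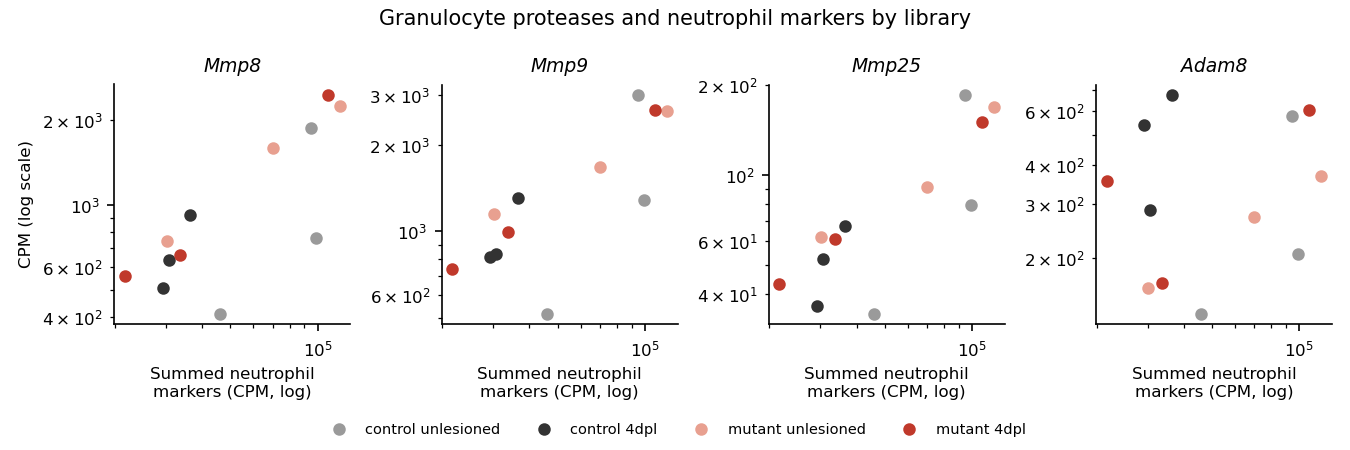
Level of Mmp8, Mmp9, Mmp25 and Adam8 in each of the 12 libraries against the summed level of 9 neutrophil markers, both in CPM on log scales, 1 point a library coloured by group. Of the 4 libraries with the most neutrophil transcripts, up to 119206 CPM, 3 hold the 3 highest values of Mmp8, Mmp9 and Mmp25, and the groups overlap on both axes except the control groups on the marker axis, where all 3 control 4dpl libraries lie below all 3 control unlesioned ones.

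Mmp12, Mmp13, Mmp8, Mmp27, Mmp20 and 5 other MMP genes lie side by side on chromosome 9, between bases 7272514 and 7699585 of GRCm38, a span of 427072 bases. Of these 10 neighbours, 8 are described here, and their mean levels ran from 0.188 CPM for Mmp1a to 1111 CPM for Mmp8. The first 100 bases upstream of the annotated start, taken from RefSeq on GRCm38.p6, are shown for 6 of them to set the gene that rose most and the collagenase Mmp13 beside low stromelysins and beside Mmp8 and Mmp27. Capitals mark TGANTCA, the core letters bound by AP-1 (Fos and Jun) factors, where N is any base and both strands were searched.
Mmp13, chr9:7272414-7272513, plus strand: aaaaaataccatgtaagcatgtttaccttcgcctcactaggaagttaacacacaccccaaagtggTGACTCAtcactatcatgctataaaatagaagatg
Mmp12, chr9:7347274-7347373, plus strand, before the later of its 2 starts: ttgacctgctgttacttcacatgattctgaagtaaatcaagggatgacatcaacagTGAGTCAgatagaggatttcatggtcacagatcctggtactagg
Mmp3, chr9:7445722-7445821, plus strand: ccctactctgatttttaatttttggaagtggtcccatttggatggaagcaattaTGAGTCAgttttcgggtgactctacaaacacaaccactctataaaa
Mmp10, chr9:7502242-7502341, plus strand: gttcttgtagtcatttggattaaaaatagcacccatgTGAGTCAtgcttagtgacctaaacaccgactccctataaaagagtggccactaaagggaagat
Mmp8, chr9:7558329-7558428, plus strand: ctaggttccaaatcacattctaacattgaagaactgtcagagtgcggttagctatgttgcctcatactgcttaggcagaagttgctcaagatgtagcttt
Mmp27, chr9:7571296-7571395, plus strand: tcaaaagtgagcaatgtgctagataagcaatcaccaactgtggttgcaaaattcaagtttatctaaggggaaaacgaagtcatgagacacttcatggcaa
The motif began 35 bases upstream of the start in Mmp13, 44 in Mmp12, 46 in Mmp3 and 63 in Mmp10, and was not in the 100 bases shown for Mmp8 or Mmp27. The promoter at the earlier Mmp12 start, not shown, also lacked the motif. Over 300-base promoter windows it was present in 9 of the 43 members with a sequence, or 9 of their 47 promoters, and in 7.81% of 32851 promoters. The TATAAA letters, searched on both strands, were in 10 of the 43 members, or 10 of the 47 promoters, and in 13.6% of all promoters. The 2 motifs did not overlap in the lines above. The neighbours that carry the AP-1 letters differed in their lesion values. Mmp12 rose, Mmp13 at 1.31, Mmp1a at -0.56, Mmp3 at -1.89 and Mmp10 at -1.99 on the log2 scale were not called by edgeR, and Mmp20, which carries the motif 95 bases upstream of its start (not shown), fell. Both Mmp3 and Mmp10, under 1 CPM, were called lower by DESeq2 and by voom, and Mmp10 also with the newer edgeR dispersion setting.

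Mmp13, collagenase 3, was low and variable, at 3.32, 0.871 and 0.332 CPM in control unlesioned, 2.47, 1.39 and 2.44 CPM in control 4dpl, 0.203, 0.281 and 0.136 CPM in mutant unlesioned and 1.55, 0.939 and 0.306 CPM in mutant 4dpl libraries. Every lesioned mutant lay above every unlesioned mutant, while controls overlapped. The lesion difference over both genotypes, 1.31 ± 0.53, was not called (edgeR adjusted p = 0.0594), while it was called without control unlesioned replicate 1 (1.997) or mutant 4dpl replicate 3 (1.54). Mmp20, enamelysin, known from tooth enamel, fell from 0.188, 0.701 and 0.684 CPM to 0, 0 and 0.0691 CPM in controls and stood at 0.534, 0.638 and 0.951 and 0.2501, 0.134 and 0.198 CPM in mutants. The level was under 1 CPM in every library, with a log2 difference of -3.19 ± 0.67 over both genotypes (edgeR adjusted p = 0.00509). The fitted value was -4.82 without control 4dpl replicate 3, which leaves that group with no read. Mmp24 was the other MMP that fell, and the main edgeR fit called no further MMP. With the newer edgeR dispersion setting Mmp10 was also called lower. DESeq2 and voom also called Mmp3 and Mmp10 lower and Mmp19 higher, and voom called Mmp13 higher and Mmp17 lower. Mmp19 (chosen after its values were seen) stood at 16.9, 1.72 and 1.43 CPM in control unlesioned and 15.5, 21.2 and 6.59 CPM in control 4dpl libraries, where replicate 1 of the unlesioned group alone was at the lesioned level.

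Of the 9 ADAM sheddases of somatic tissues, 5 rose and 1 fell over both genotypes, where 14.2% and 18.6% of all genes did. Of the 6 above 10 CPM 4 rose, against 40.9% of genes at that level. ADAM10 and ADAM17 are the general sheddases that release Notch ectodomains and TNF, ADAM9 sheds growth factor precursors, and ADAM15 carries an integrin-binding disintegrin domain. Adam10 stood at 152, 59.1 and 109 CPM in control unlesioned and 287, 242 and 336 CPM in control 4dpl libraries, and at 217, 91.6 and 108 and 333, 266 and 228 CPM in mutants. Adam17 stood at 122, 36.4 and 68.1 and 223, 218 and 239 CPM in controls and at 136, 48.9 and 82.3 and 226, 189 and 145 CPM in mutants. For both genes all 6 lesioned values were above all 6 unlesioned ones, and replicate 1 was the highest unlesioned library in each genotype. The log2 differences over both genotypes were 1.21 ± 0.26 for Adam10 and 1.32 ± 0.29 for Adam17 (edgeR adjusted p = 0.00557 and 0.00582). Exons of Adam17 overlap those of Iah1 on the opposite strand, which averaged 23.7 CPM.

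Adam9 rose from 83.3, 19.02 and 46.5 CPM to 166, 156 and 183 CPM in controls and stood at 89.1, 29.9 and 54.1 CPM unlesioned and 181, 127 and 132 CPM at 4dpl in mutants. Adam15 had 137, 108 and 117 and 241, 282 and 266 CPM in controls and 143, 84.9 and 109 and 236, 188 and 172 CPM in mutants. Neither gene had a lesioned library within the unlesioned range, and Adam15 had the smallest SE of the risers over both genotypes. The log2 difference was 1.55 ± 0.32 for Adam9 and 0.98 ± 0.17 for Adam15 (edgeR adjusted p = 0.00485 and 0.00303). Adam33, an ADAM of mesenchymal cells chosen here after its values were seen, rose by 1.21 ± 0.30 from a low level of 1.35 to 3.18 CPM in control unlesioned libraries.

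Adam28, a sheddase known from lymphocytes, went the other way. It stood at 1.15, 3.87 and 3.595 CPM unlesioned and 0.682, 0.381 and 0.622 CPM at 4dpl in controls, and at 2.38, 3.75 and 5.12 and 1.34, 0.752 and 0.126 CPM in mutants. Within each genotype the groups did not overlap, with control unlesioned replicate 1 the lowest of the unlesioned values, and the log2 difference was -2.35 ± 0.48 (edgeR adjusted p = 0.00475). The 3 neural ADAMs without a catalytic site, Adam11, Adam22 and Adam23, which act as adhesion and synaptic receptors, were not called, with log2 differences from -0.28 to 0.52. Of the 15 ADAMs known from testis and sperm, none rose and 6 fell, and 13 of 15 had a lower value. All 6 were among the 11 under 1 CPM, a level at which 33.4% of all genes fell. Adam2, the sperm fertilin beta, fell from 0.432, 1.08 and 1.43 CPM to 0.03497, 0.0694 and 0.161 CPM in controls and stood at 0.682, 0.731 and 1.13 and 0.182, 0.0537 and 0.126 CPM in mutants, with no overlap in either genotype and a log2 difference of -3.12 ± 0.50 (edgeR adjusted p = 0.00265). Adam7, an epididymal ADAM without a catalytic site, had a log2 difference of -2.58 ± 0.55. Several of the testis ADAMs have close paralogs between which reads can be split, and their levels under 3 CPM in most libraries rest on few reads.

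**Figure D3:**
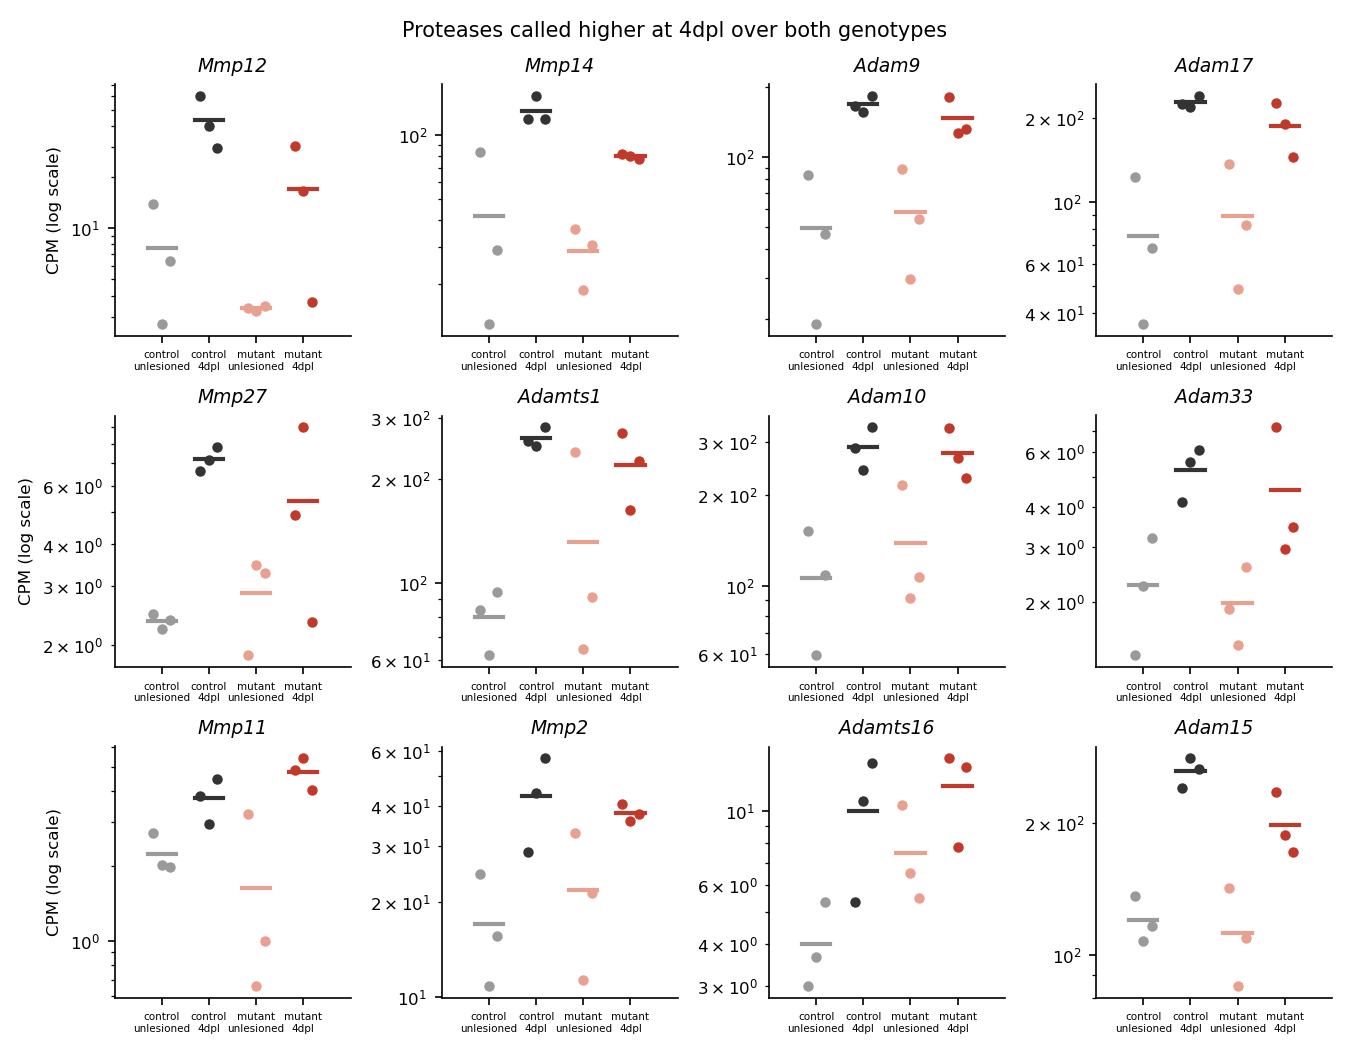
Level in CPM on a log scale of the 12 members called higher at 4dpl over both genotypes, with 1 point a library (replicates 1 to 3 from left to right) and a line at the mean of each group of 3. Adam9, Adam10, Adam15 and Adam17 have every lesioned point above every unlesioned point, whereas for Mmp12 the lowest mutant 4dpl library, at 3.65 CPM, stays near the unlesioned ones.

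The upstream sequences of Adam10 and Adam17 are shown with those of Timp2 because these abundant members have promoters unlike those of the chromosome 9 MMPs. Each line holds the 250 bases before the annotated start from RefSeq on GRCm38.p6, read 5′ to 3′ on the strand of the gene, and capitals mark CG pairs, the sites of DNA methylation and hydroxymethylation.
Adam10, chr9:70678732-70678981, plus strand: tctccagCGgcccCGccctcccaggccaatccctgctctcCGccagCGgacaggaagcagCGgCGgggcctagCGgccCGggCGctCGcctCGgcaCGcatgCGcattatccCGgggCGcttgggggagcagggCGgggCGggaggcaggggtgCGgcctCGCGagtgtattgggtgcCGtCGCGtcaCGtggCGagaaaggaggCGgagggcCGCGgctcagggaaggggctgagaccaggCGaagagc
Adam17, chr12:21373633-21373882, minus strand: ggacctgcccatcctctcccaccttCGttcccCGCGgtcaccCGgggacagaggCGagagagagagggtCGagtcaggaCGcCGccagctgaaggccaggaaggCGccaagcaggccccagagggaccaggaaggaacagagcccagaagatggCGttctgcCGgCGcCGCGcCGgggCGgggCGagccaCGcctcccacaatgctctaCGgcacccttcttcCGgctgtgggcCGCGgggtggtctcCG
Timp2, chr11:118355412-118355661, minus strand: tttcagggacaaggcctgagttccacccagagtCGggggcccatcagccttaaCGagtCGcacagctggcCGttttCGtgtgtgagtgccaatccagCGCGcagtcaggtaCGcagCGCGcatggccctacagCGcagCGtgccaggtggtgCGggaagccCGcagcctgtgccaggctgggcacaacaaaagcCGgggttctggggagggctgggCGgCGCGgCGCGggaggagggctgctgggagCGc
In 300-base windows around the start, the 8 risers with a promoter sequence held a median of 18.5 CG pairs (3 to 32), the 12 fallers 4.5 (0 to 44) and all promoters 7. A member with more than 1 promoter was counted once, by its highest value, while the 7 is a median over single promoters. Level moved with the count of CG pairs, with a median of 18.5 in members over 10 CPM and 1 in members under 1 CPM. The part of level was not tested. Methylation was not measured in these libraries.

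Among the ADAMTS genes, 2 of 19 rose and 8 fell over both genotypes, beside 14.2% and 18.6% of all genes. Adamts1 stood at 83.5, 61.9 and 94.2 CPM in control unlesioned and 259, 249.8 and 283 CPM in control 4dpl libraries, and at 240.1, 64.7 and 91.2 and 271, 163 and 226 CPM in mutants. The control groups were far apart, whereas mutant unlesioned replicate 1 lay within the lesioned range. The log2 difference was 1.23 ± 0.28 over both genotypes (edgeR adjusted p = 0.00663), with 1.72 in controls and 0.74 in mutants. The mutant value was 1.53 without mutant unlesioned replicate 1 and 0.42 without mutant unlesioned replicate 2. Adamts16, which can cleave fibronectin, rose from 2.99, 3.65 and 5.35 CPM to 5.33, 10.7 and 13.9 CPM in controls, with mutants at 10.4, 6.53 and 5.504 and 14.4, 7.78 and 13.5 CPM. The control groups touched and the mutant groups overlapped. The log2 difference was 0.99 ± 0.28 (edgeR adjusted p = 0.0143), and at 0.82 it was not called without control 4dpl replicate 3.

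Adamts4, the aggrecanase found in mature oligodendrocytes, was not called. It stood at 128, 105 and 109.9 and 189, 163 and 108 CPM in controls and at 177, 46.7 and 81.7 and 149, 141 and 332 CPM in mutants, the last value being that of mutant 4dpl replicate 3, the library richest in oligodendrocyte markers. The log2 difference was 0.73 ± 0.31 (edgeR adjusted p = 0.069) and 0.49 without that library.

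Adamts5, another aggrecanase, averaged 2.16 CPM and was not called by edgeR at -0.96 ± 0.36 (edgeR adjusted p = 0.0457), since its unadjusted p was above 0.01. DESeq2 and voom called it lower over both genotypes. Adamts15, which cleaves versican, fell from 1.62, 2.53 and 4.69 CPM to 0.402, 1.01 and 0.898 CPM in controls, with 2.06, 3.0002 and 2.26 and 1.39, 0.349 and 1.04 CPM in mutants. All 6 lesioned values lay below all unlesioned ones, with a log2 difference of -1.66 ± 0.38 (edgeR adjusted p = 0.00702). Adamts18 at -2.12 ± 0.47 and Adamts12 at -1.67 ± 0.38 fell from similarly low levels. The other 5 that fell were Adamts3, Adamts9, Adamts13, Adamts17 and Adamts19, averaging between 0.572 and 2.71 CPM. Adamts10, a fibrillin-associated member at 31.1 CPM, was not called by edgeR at 0.53 ± 0.20, while voom called it higher over both genotypes and in controls.

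None of the 4 TIMPs was called by edgeR for the lesion over both genotypes. Timp2 stood at 314, 207 and 184 CPM in control unlesioned and 154, 189 and 239.7 CPM in control 4dpl libraries, and at 299, 286 and 277 CPM in mutant unlesioned and 492, 461 and 631 CPM in mutant 4dpl libraries. Controls overlapped, while every lesioned mutant was above every other library. The lesion difference was -0.27 ± 0.27 in controls and 0.88 ± 0.27 in mutants, neither called (edgeR adjusted p = 0.467 and 0.0661). The rise in mutants was called by DESeq2, by voom and with the newer edgeR dispersion setting.

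Timp1, the inhibitor best known as induced by inflammation, stood at 7.66, 0.6799 and 1.52 and 9.76, 16.3 and 3.52 CPM in controls and at 0.3501, 0.469 and 3.33 and 2.14, 2.09 and 2.64 CPM in mutants. The control 4dpl libraries spread widely and control unlesioned replicate 1 lay among them, and the difference over both genotypes of 1.16 ± 0.62 was not called (edgeR adjusted p = 0.141). It was 2.04 without mutant unlesioned replicate 3 and 1.98 without control unlesioned replicate 1, called in both cases, and voom called it over both genotypes and in controls. Timp3, the matrix-bound inhibitor, had 7.31, 4.55 and 7.29 and 13.7, 9.45 and 8.75 CPM in controls and 12.5, 8.87 and 10.96 and 14.9, 9.58 and 23.03 CPM in mutants. Timp4 had 7.63, 6.59 and 10.3 and 14.2, 11.4 and 19.2 CPM in controls and 15.5, 11.5 and 9.35 and 16.2, 10.4 and 18.1 CPM in mutants. Both lay higher at 4dpl in all control libraries and overlapped in mutants, with 0.65 ± 0.23 and 0.58 ± 0.21 over both genotypes (edgeR adjusted p = 0.0396 and 0.0411), where the unadjusted p was above 0.01. Exons of Timp3 and Timp4 overlap those of Syn3 and Syn2 on the opposite strand.

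**Figure D4:**
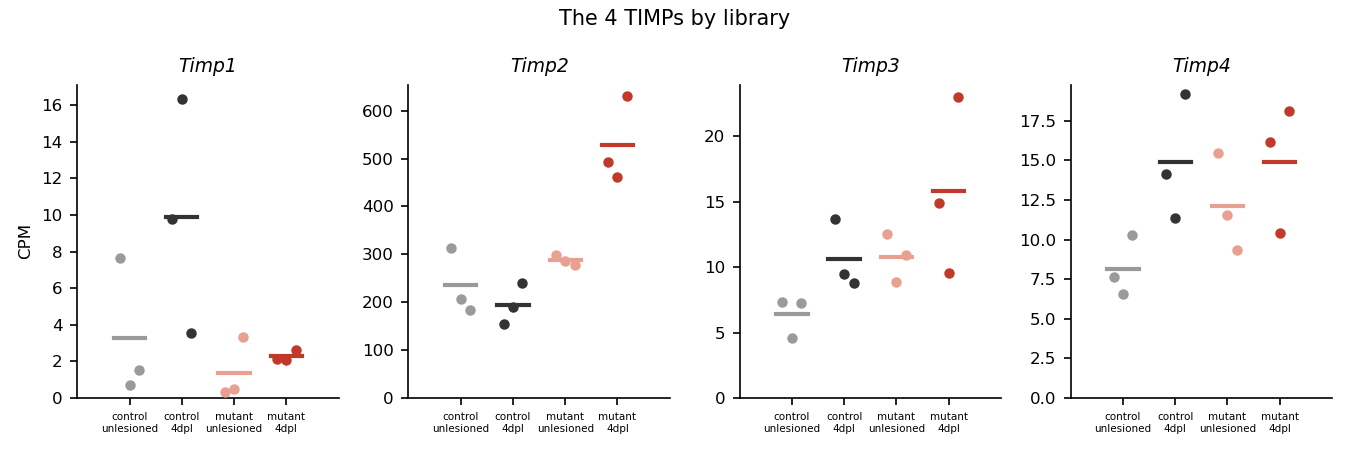
Level in CPM of the 4 TIMPs, with 1 point a library (replicates 1 to 3 from left to right) and a line at the mean of each group of 3. The Timp2 points of the mutant 4dpl group, from 461 to 631 CPM, lie above all others.

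Within controls alone, 10 members rose with the lesion (5.12% of all genes tested rose) and 6 fell (5.01%). The 10 were Mmp2, Mmp12, Mmp14, Mmp27, Adam9, Adam10, Adam15, Adam17, Adamts1 and Adamts16, and the 6 were Mmp20, Adam2, Adam28, Adam34, Adamts15 and Adamts18. Of the 21 members above 10 CPM, 8 rose in controls, against 14.7% of all genes at that level. At an unadjusted p under 0.05, 15 members were higher (13.9% of all genes) and 18 lower (20.1%). Without control unlesioned replicate 1 the called counts were 13 (12.2% of all genes) and 12 (9.67%). Leaving out control unlesioned replicate 2 or 3, or control 4dpl replicate 1 or 2, took both counts to 0. Calls were lost over all genes as well. In these settings, in that order, 0.003%, 0.249%, 0.00883% and 0.00589% of all genes rose and 0%, 0.101%, 0.00294% and 0% fell. Without mutant unlesioned replicate 3, which enters through the shared estimate of the spread, 2 rose (1.54% of all genes) and 2 fell (1.16%). Without control 4dpl replicate 3, 5 rose (2.76%) and 4 fell (2.66%).

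Within mutants, edgeR called no member in either direction (0.0225% of all genes rose and 0.113% fell). At an unadjusted p under 0.05, 14 members were higher in mutants at 4dpl (15.9% of all genes) and 19 lower (17.9%), and DESeq2 called 6 rises (2.86% of all genes with an adjusted p) and 14 falls (10.2%). The edgeR counts were 8 and 7 without control unlesioned replicate 1 (7.72% and 5.56% of all genes), and 8 and 4 without mutant unlesioned replicate 1 (6.36% and 3.86%). Of the 10 that rose in controls, all had a higher mean at 4dpl in mutants, with log2 differences from 0.67 for Adamts16 to 2.33 for Mmp12. The difference between genotypes in the lesion effect was called for no member, and for no gene at all (0%), by edgeR, DESeq2 or voom, and 1 member (1.41%, with 2.66% of all genes) was at an unadjusted p under 0.05 with a larger value in mutants and 0 with a smaller one (1.14% of all genes). That member was Timp2.

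**Figure D5:**
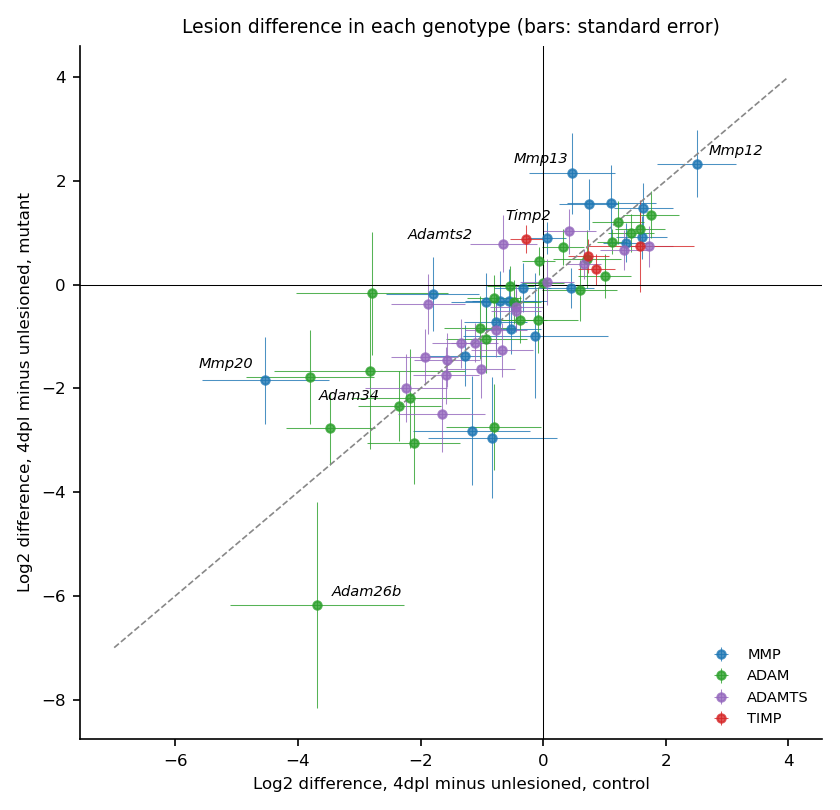
Log2 difference between 4dpl and unlesioned libraries in controls (horizontal) and in mutants (vertical) for the 71 members, coloured by family, with bars of 1 SE and a dashed line where both are equal. Most members lie along the line, and Timp2 is at -0.27 in controls and 0.88 in mutants.

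Between genotypes, Timp2 at 4dpl stood out among the members. All 3 mutant 4dpl libraries, at 492, 461 and 631 CPM, lay above all 3 control 4dpl libraries, at 154, 189 and 239.7 CPM. The log2 difference was 1.44 ± 0.27, and its adjusted p in edgeR's test of 0.185 missed the threshold. DESeq2 and voom did call it (adjusted p = 4.4e-04 and 0.0342), as did edgeR without control unlesioned replicate 1 (adjusted p = 0.0335), a library outside the comparison that enters through the shared estimate of the spread. Without mutant 4dpl replicate 3, which holds the highest Timp2 and the most oligodendrocyte transcripts, the log2 difference was 1.29. The other 2 mutant 4dpl libraries had oligodendrocyte marker sums of 23860 and 26852 CPM, within the 21514 to 32785 CPM of control 4dpl libraries, and Timp2 values above all of these, and the part of oligodendrocyte transcripts in the difference was not tested. In unlesioned tissue the difference was 0.29 ± 0.27 with overlapping groups, and the test of the difference in lesion effect gave 1.15 ± 0.38 (edgeR adjusted p = 1).

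No member was called between genotypes in unlesioned tissue or at 4dpl by edgeR, as no gene was (0% in both). At an unadjusted p under 0.05, 3 members were higher and 2 lower in unlesioned mutants (1.72% and 3.5% of all genes), and 5 were higher and 2 lower in mutants at 4dpl (5.15% and 1.77%). DESeq2 called no member in unlesioned tissue and Timp2 alone at 4dpl. All mutant values lay above all control values for 6 members (4.09% of all genes) and below for 3 (6.28%) in unlesioned tissue, and above for 10 (7.34%) and below for 3 (5.44%) at 4dpl. Mmp13 had the smallest p in unlesioned tissue, at 0.136 to 0.281 CPM in mutants against 0.332 to 3.32 CPM in controls, with a log2 difference of -2.85 ± 0.79 (edgeR adjusted p = 0.693) that was -1.52 without control unlesioned replicate 1. The sperm gene Adam5 came next at 1.82 ± 0.62, with mutant unlesioned replicate 2 alone at 4.48 CPM and a difference of 0.71 without it. Adamts16 followed at 0.91 ± 0.39, with all mutants above all controls, and was at 0.58 without mutant unlesioned replicate 1.

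At 4dpl, Mmp20 followed Timp2 with a difference of 3.12 ± 1.05 at under 0.3 CPM, where 2 control libraries had no read. The fitted value was 6.28 without control 4dpl replicate 3, which leaves that group with no read. Adamts2, the procollagen N-proteinase, had 5.19, 5.05 and 3.06 CPM in control and 7.53, 7.11 and 27.04 CPM in mutant 4dpl libraries, where replicate 3 alone was far above the rest. Its difference of 1.65 ± 0.56 (edgeR adjusted p = 0.446) was 0.72 without that library. Mmp15, a membrane-type MMP, came after Timp2 and Mmp20 in the test of the lesion effect between genotypes, with 0.84 ± 0.44 that was 0.49 without mutant 4dpl replicate 3. Timp1 at 4dpl ran against Timp2, at 2.09 to 2.64 CPM in mutants and 3.52 to 16.3 CPM in controls, with a log2 difference of -2.11 ± 0.90 that was not called (edgeR adjusted p = 0.648).

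The partners and targets of these proteases were read from 4 lists. Of 28 other inhibitors and regulators, 7 rose and 2 fell over both genotypes, beside 14.2% and 18.6% of all genes, and of the 18 above 10 CPM 5 rose, beside 40.9% at that level. Thbs2, the thrombospondin that limits MMP2 by carrying it to a scavenger receptor, went from 1.12 ± 0.601 to 7.72 ± 3.14 CPM in controls (mean ± SD, n = 3) and from 3.31 ± 0.867 to 7.29 ± 0.251 CPM in mutants, a log2 difference of 1.96 ± 0.30 (edgeR adjusted p = 0.0022). Lrp1, the endocytic receptor that clears MMPs and TIMPs, went from 256 ± 72.8 to 921 ± 137 CPM in controls and from 245 ± 131 to 576 ± 203 CPM in mutants. Its difference over both was 1.54 ± 0.28. Tspan14, a tetraspanin that carries ADAM10 to the cell surface, rose by 0.76 ± 0.18 alongside Adam10, whereas Tspan33, of the same tetraspanin group, fell by 1.41 on the log2 scale. Tspan33 went from 25.5 ± 13.6 to 4.31 ± 0.657 CPM in controls, where edgeR called it. In mutants it went from 16.4 ± 6.28 to 13.8 ± 4.66 CPM, with overlapping groups. Reck, a membrane inhibitor of MMPs, was not called.

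Of 9 genes of the plasminogen system, which activates several proMMPs, 4 rose and 1 fell, and 3 of the 5 above 10 CPM rose, against the same shares of all genes. Plau, the urokinase activator, went from 4.603 ± 1.04 to 10.4 ± 0.752 CPM in controls, and its inhibitor Serpine2 from 116 ± 42.3 to 396 ± 127 CPM. Within controls edgeR called Serpine2 but not Plau. In mutants Plau went from 4.15 ± 1.05 to 7.11 ± 3.82 CPM, with overlapping groups, and Serpine2 from 198 ± 73.5 to 363 ± 95.9 CPM. Over both genotypes they differed by 0.98 ± 0.26 and 1.32 ± 0.25. Of 19 matrix and myelin substrates, 4 rose and 3 fell, shares near the 14.2% and 18.6% of all genes, and the 4 were among 9 above 10 CPM. Spp1 (osteopontin), a phagocyte matrix protein cut by MMPs, rose most, from 1661 ± 1212 to 12898 ± 3051 CPM in controls and from 391 ± 262 to 6842 ± 3164 CPM in mutants, by 3.54 ± 0.56 over both. Fn1 (fibronectin) rose by 1.92 ± 0.38 and Col1a1 by 1.55 ± 0.30. Col1a1 went from 4.90 ± 2.85 to 28.6 ± 15.4 CPM in controls and from 7.30 ± 1.48 to 10.8 ± 2.48 CPM in mutants. Of 24 substrates of ADAM sheddases, 7 rose and 1 fell, and the 7 were among 20 above 10 CPM, a share below the 40.9% of all genes at that level. They include the phagocyte receptors Trem2 at 1.21 ± 0.27 and Mertk at 1.39 ± 0.29. Among these 4 lists edgeR called no gene within mutants or between genotypes.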

How the data were processed

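Libraries of total RNA from Percoll-enriched spinal cord cells were sequenced by the authors as paired reads and aligned to mm10, with BWA per the study's methods and STAR per the submitters' processing notes. The deposited files hold raw counts of uniquely aligned reads over exons per Ensembl gene, made by the authors with featureCounts. Whether strand was used is not given in the sources used here. The members and gene lists were chosen with earlier results of these data known. Counts of the 12 libraries were fitted together with edgeR 4.0.16 (R 4.3.3; TMM, filterByExpr, 1 mean per group, quasi-likelihood test), and p-values were adjusted by Benjamini-Hochberg over 31109 genes. Calls needed p under 0.01 and adjusted p under 0.05, the thresholds of the study's methods. The SE is the absolute log2 difference divided by the square root of F. Named with values were all TIMPs, the 3 highest members of each family per kilobase of exon, the 14 with the smallest p for the lesion over both genotypes, the 3 with the smallest p in each genotype comparison and the interaction, and well-known members of the tissue. Alternatives were DESeq2 1.42.0, voom with sample weights (limma 3.58.1), other scaling, filters and dispersion settings, a replicate block and leaving out each library. The test was tried on simulated data. Promoters came from RefSeq on GRCm38.p6, with 43 of 71 members matched. Exons of 18 of the 71 members overlap those of another gene.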

Additional observations from a re-analysis of the deposited data

How the results depend on the processing

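Of 1434 log2 differences of named members under the alternatives, 1233 kept their direction and their side of the threshold, 80 fell below it, 110 passed it and 11 changed sign, and of 248 counts of called members 212 stayed within 1.5 times the reported count. For the lesion over both genotypes (12 rises, 17 falls) none of the counts moved by more. Leaving out single libraries gave 11 to 17 rises (10.2% to 17.7% of all genes) and 14 to 18 falls (13.2% to 20.2%). In controls (10 and 6), fitting the 2 groups alone gave 5 rises and 2 falls (2.39% and 2.14% of all genes). Falls numbered 12 with DESeq2 (12.1% of genes with an adjusted p), 12 with voom (15.5% of all genes) and 11 with the newer edgeR dispersion setting (12%). They numbered 12 (10.9%) without control unlesioned replicate 1 and mutant 4dpl replicate 3 together, a setting chosen after seeing the data. Leaving out single libraries gave 0 to 13 rises (0.003% to 12.2% of all genes) and 0 to 12 falls (0% to 9.67%). In mutants (0 and 0), DESeq2 gave 6 rises and 14 falls (2.86% and 10.2% of genes with an adjusted p). Voom gave 9 and 13 (11.2% and 10.6% of all genes) and the newer dispersion setting 5 and 7 (4.42% and 9.82%). No filter gave 2 and 2 (0.621% and 1.23%) and the 2 groups alone 1 and 2 (0.151% and 2.77%). Leaving out both libraries gave 4 rises (1.09%). Leaving out single libraries gave 0 to 8 rises (0% to 7.72%) and 0 to 7 falls (0% to 5.56%). Timp2 was the 1 member called between genotypes at 4dpl by DESeq2 (0.733% of genes with an adjusted p were called higher) and the 1 called by voom (0.109% of all genes). Single libraries left out gave 0 to 1 (0% to 0.136%). Without both libraries, Mmp8 and Mmp9 changed sign to 0.13 and 0.040, and Timp2 with the lesion in controls to 0.016, with -0.41 to 0.018 over single libraries. Adamts2 with the lesion over both genotypes (0.07) changed to -0.013 with DESeq2, -0.021 with RLE scaling, -0.062 with voom and -0.17 without both libraries, with -0.37 to 0.31 over single libraries. None of these genes was called for the lesion in these comparisons. Except where said, the causes were not tested. Same-numbered libraries of a genotype correlated at 0.189, 0.0517 and 0.189 in controls and -0.0301, 0.0728 and -0.0703 in mutants in their deviations from group means. The paper's own sample list numbers the control 4dpl libraries 2, 3 and 4 and the mutant unlesioned libraries 1, 3 and 4. Equal label numbers may therefore not mean 1 animal, so this check cannot decide on pairs, and none were taken. Unlesioned and lesioned libraries may share animals, which the main fit does not take into account. In controls every library correlated best with its own number and in mutants not all did. A fit with the replicate block, which rests on the label numbers, called 11 rises and 4 falls in controls (7.51% and 4.84% of all genes). It called 0 and 0 in mutants (0.0129% and 0%) and 16 and 15 over both genotypes (15.6% and 15.7%). Depth limits the 21 members under 1 CPM, several of which had libraries with no read.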

Other observations

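The balance of Timp2 to its membrane partner Mmp14, which form a complex that activates proMMP2, was computed after the values of both genes were seen. As a ratio of levels per kilobase of exon, it was 24.3, 9.71 and 5.77 in control unlesioned libraries from high to low and 3.09, 1.98 and 1.91 at 4dpl, with a mean ± SD of 13.3 ± 9.78 and 2.33 ± 0.661 (n = 3 each). In mutants it was 23.2, 13.9 and 12.6 unlesioned and 12.6, 9.23 and 8.85 at 4dpl, with 16.6 ± 5.76 and 10.2 ± 2.04. All control 4dpl values lay below all others. No test was made of a ratio chosen in this way.

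Of the 50 members averaging over 1 CPM, 9 had their highest value of all 12 libraries in mutant 4dpl replicate 3, the library with the highest oligodendrocyte marker sum of 63635 CPM. They were Timp2, Timp3, Adamts2, Adamts4, Mmp15, Adam19 and the 3 neural ADAMs without a catalytic site, Adam11, Adam22 and Adam23. Control 4dpl replicate 3 held the highest value of 8 members, among them Adam9, Adam10, Adam17, Adamts1 and Mmp2. Control unlesioned replicate 2 held none.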
